A study of Mus musculus with 10 samples.

Results

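The 10 genes described here encode lens crystallins: *Cryaa*, *Cryba1*, *Cryba2*, *Cryba4*, *Crybb1*, *Crybb2*, *Crybb3*, *Crygs*, *Crygc* and *Crygd*. They were selected by gene name, with no threshold on measured values but with earlier results of these data known, and each matched a single gene among the 54532 genes in the RNA-seq table of mouse neural retina. The mice were BALB/c, an albino inbred strain, aged 2 months, all kept in the dark for 12 hr before the light, and no genotype or agent other than light differed between them. The light damage group (LD, 5 samples) received 15000 lux and the normal light group (NL, 5 samples) 200 lux, in both cases for 1 day. In the labels the retinas carry the numbers 1, 4, 5, 7 and 8 (NL) or 1, 4, 6, 7 and 8 (LD). The study calls the samples of a group biological replicates, but the labels do not say which came from separate mice, so p-values measure the spread between samples, part of which may be technical.

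Crystallins are the abundant, long-lived soluble proteins that keep the lens transparent. The α-crystallins, encoded by *Cryaa* and *Cryab*, belong to the small heat shock proteins and hold damaged proteins in solution. The β- and γ-crystallins share a different fold built from Greek key motifs, and their genes are expressed most strongly in lens fibre cells under transcription factors such as MAF, PAX6, SOX2 and PROX1. Several crystallins are also made at low levels in the retina, and a fragment of lens left on a dissected retina would carry their transcripts as well.

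The 10 retinas had 18965090 to 26832535 reads, recovered from the FPKM table. In it, fragments are divided by gene length and a scaled library size. That size was the reads times a factor per retina, 0.951 to 0.968 in NL and 1.04 to 1.07 in LD. Read ratios per library size use the scaled size. A read on a gene of 1 kb was worth 0.0388 to 0.0493 FPKM. The retinal identity of the tissue was clear from the rod gene *Gnat1*, encoding the α-subunit of rod transducin, at 2431 to 3119 FPKM in NL and, after light damage, 274 to 653 FPKM. Of 14 marker genes of retinal cell types, all were tested and 5 were called lower after LD, against 2.37% of all genes tested, among them the rod genes *Gnat1*, *Sag* and *Pde6b* and the Müller glia gene *Glul*. In these bulk samples, fewer cells of a type and less RNA per cell cannot be told apart. When the reads of 2 retinas within a group were compared, chi-square divided by the number of genes was 10.9 to 38.5, except for NL-5 with NL-7 (2.71), LD-1 with LD-7 (3.41) and LD-4 with LD-6 (2.52), which were closer to each other but still above the value of 1 that sampling noise gives. All 10 were kept as separate samples, and results with these 3 pairs averaged are given where a call changes.

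The stretches before the start of 4 members are printed: *Crybb3*, *Crybb1* and *Crygs*, the members that differed most between LD and NL, and *Cryba4*, the neighbour of *Crybb1* with the most half-sites for MAF, a factor that drives crystallin genes in the lens. All 4 hold such a half-site. They are on GRCm38.p6, from RefSeq, and are written 5′ to 3′ on the strand of the gene. Capitals mark matches on either strand to the MAF half-site TGCTGA. They also mark matches to the AP-1 site TGANTCA. In *Crybb1* they mark, in addition, the TATA box TATAAA. *Crybb3* is at chr5:113081585-113081834 on the minus strand, *Crybb1* at chr5:112255570-112255814 on the plus strand, *Cryba4* at chr5:112252519-112252768 on the minus strand and *Crygs* at chr16:22811578-22811660 on the minus strand. For *Crybb1* and *Crygs* the 5 and 167 bases nearest the start are not printed, because GENCODE release M21 places an exon there.
Crybb3: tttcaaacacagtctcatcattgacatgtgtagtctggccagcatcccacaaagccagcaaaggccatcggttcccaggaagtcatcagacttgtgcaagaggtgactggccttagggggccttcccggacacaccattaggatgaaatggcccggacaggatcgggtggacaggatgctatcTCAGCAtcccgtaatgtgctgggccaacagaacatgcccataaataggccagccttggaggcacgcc
Crybb1: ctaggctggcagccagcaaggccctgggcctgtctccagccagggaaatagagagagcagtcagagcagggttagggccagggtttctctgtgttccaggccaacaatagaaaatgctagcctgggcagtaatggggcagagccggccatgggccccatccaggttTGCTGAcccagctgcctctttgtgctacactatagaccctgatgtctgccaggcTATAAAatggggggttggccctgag
Cryba4: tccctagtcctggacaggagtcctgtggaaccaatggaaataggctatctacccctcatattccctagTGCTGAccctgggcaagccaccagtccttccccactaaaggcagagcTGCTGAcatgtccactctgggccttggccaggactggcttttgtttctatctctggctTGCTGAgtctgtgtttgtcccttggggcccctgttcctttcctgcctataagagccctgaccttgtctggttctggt
Crygs: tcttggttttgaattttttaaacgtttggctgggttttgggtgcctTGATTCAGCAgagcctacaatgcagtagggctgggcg

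All 10 members matched a RefSeq promoter entry. Within the 250 bases before the start, TGCTGA on either strand was found in 8 of the 10 members, against 15.8% of all 27025 promoters. *Crybb2* and *Crygd* had no match. Counted in bases from the start, the site lay at -57 in *Cryba1*, -67 in *Crybb3* and -84 in *Crybb1*, and *Cryba4* had 3 matches. The *Cryaa* match was at -108, and GENCODE release M21 places an exon on 124 of the 250 bases of *Cryaa*. The AP-1 letters TGANTCA were found in *Crygs* and *Cryba2*, against 6.87% of all promoters, and of the 2 matches in *Crygs* the one at position -204 overlaps the MAF half-site, while the one at -85 does not. TATAAA was found in 3 members and in 12.97% of all promoters. In *Crygs* the AP-1 match at -85 and the TATAAA match at -25 lie within the 167 bases that GENCODE release M21 places in an exon. The heat shock element core GAANNTTC, searched on both strands, was found in none of the 10 members and in 6.78% of all promoters. A match of letters is a description of the sequence and does not show that a factor binds there.

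**Figure D1:**
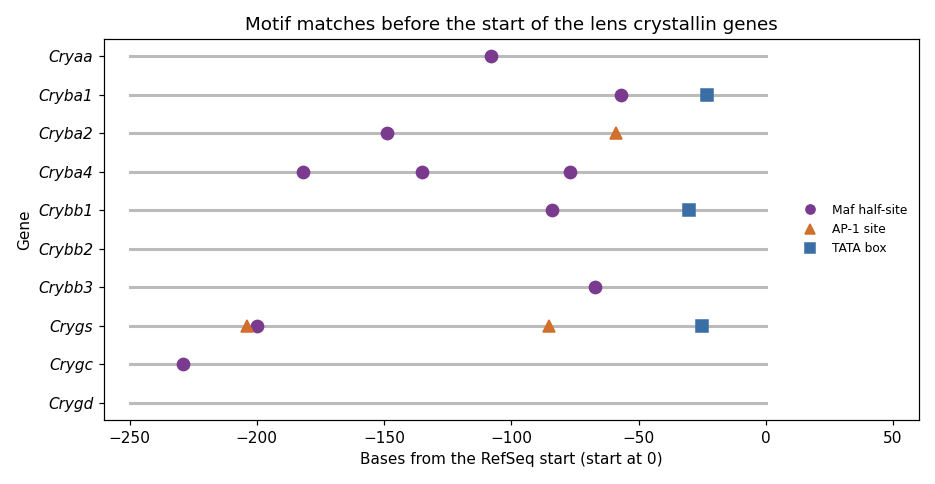
Matches to the MAF half-site (circles), the AP-1 site (triangles) and the TATA box (squares) in the 250 bases before the RefSeq start of the 10 members, with the distance of the first base of each match in bases on the horizontal axis. A half-site is present in 8 of the 10 genes, nearest to the start in *Cryba1* at -57. In some genes part of this stretch is an exon in GENCODE release M21, in *Crygs* the 167 bases nearest the start.

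The lens crystallins were scarce in these retinas. Summed over the 10 genes, 30 to 69 reads were found in each NL sample and 62 to 127 in each LD sample, or 1.35 to 2.69 and 2.65 to 6.70 per 1000000 reads. On the FPKM scale, the sum was 0.972 in NL-1, 0.840 in NL-4, 1.70 in NL-5, 1.66 in NL-7 and 1.71 in NL-8. In the LD retinas it was 1.35 in LD-1, 3.22 in LD-4, 2.83 in LD-6, 1.71 in LD-7 and 2.14 in LD-8. The 2 groups overlapped, since LD-1 and LD-7 lay within the range of the NL retinas. A single gene accounted for the higher level in LD: *Crybb3* made up 23.5% to 48.6% of the sum under NL, compared with 56.1% to 69.0% after LD. Without *Crybb3* the sum was 0.919 ± 0.340 FPKM in the NL and 0.836 ± 0.229 FPKM in the LD group (SD over 5 retinas), a difference smaller than the spread within either group. The sums were not tested, since the set of genes was put together with results of these data known. The single genes are tested within the fit of all genes.

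**Figure D2:**
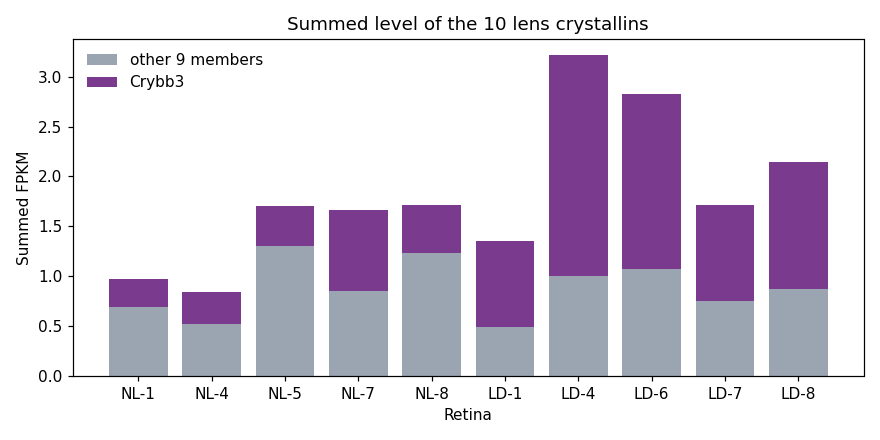
Summed FPKM of the 10 lens crystallin genes in each retina, as stacked bars with *Crybb3* in purple and the other 9 genes in grey. LD-4 and LD-6 have the highest sums, 3.22 and 2.83 FPKM, and the grey part is of similar height in NL and LD retinas.

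LD was compared with NL by limma on log2(FPKM + 0.1), a scale that understates changes of low genes, for 24508 genes that reached 0.1 FPKM in 5 retinas or more. Of the 10 members, 5 passed this filter (*Cryba1*, *Cryba4*, *Crybb1*, *Crybb3* and *Crygs*) and 5 did not (*Cryaa*, *Cryba2*, *Crybb2*, *Crygc* and *Crygd*). With the study's thresholds of an adjusted p under 0.01 and a change above 2-fold, 1 of the 5 tested members was called, *Crybb3*, which was higher after LD. Among all genes tested 6.51% were called, with 4.13% called higher and 2.37% called lower. The median log2 fold change of the 5 tested members was -0.15, and that of all genes tested was -0.01. *Crygs* passed the filter through its LD values and *Crybb1* through its NL values, so a difference in these directions was favoured by the filter.

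*Crybb3*, on chromosome 5 from 113075839 to 113081584 (GRCm38, minus strand), encodes a basic β-crystallin and was the most abundant member in both groups. Its level was 0.281 FPKM in NL-1, 0.323 in NL-4, 0.401 in NL-5, 0.808 in NL-7 and 0.482 in NL-8. After LD it was 0.861 FPKM in LD-1, 2.22 in LD-4, 1.76 in LD-6, 0.960 in LD-7 and 1.27 in LD-8. No LD value fell into the NL range, although LD-1 exceeded NL-7 only slightly. The mean rose from 0.459 ± 0.210 to 1.41 ± 0.571 FPKM (SD, n = 5 each), which corresponds to 118 reads over the NL group and 363 over the LD group. By limma the log2 fold change was 1.43 ± 0.30 (SE) at an adjusted p of 0.00534, and a two-sided exact permutation test gave p = 0.00794, the smallest value possible for 5 against 5. The groups of 22.4% of all genes tested did not overlap.
The direction of *Crybb3* was kept in all 23 alternative settings, but the call was near its limit. Leaving out NL-1, NL-4, NL-5, NL-8, LD-4, LD-6 or LD-8 gave an adjusted p of 0.0116 to 0.0161 in limma at log2 fold changes of 1.26 to 1.46, so that each of these 7 of the 10 retinas was needed for the call. With the 3 closest pairs averaged, the log2 fold change was 1.49 with an adjusted p of 0.0187 in limma. With a pseudocount of 1, it was 0.71.
LD-4 and LD-6, highest in *Crybb3* and the closest pair of samples, also had the lowest *Gnat1* among LD retinas, 274 and 299 FPKM. In LD-1, LD-7 and LD-8 it was at 484 to 653 FPKM. Of 3 Müller glia genes, *Slc1a3* was at 46.9 and 44.4 FPKM in LD-4 and LD-6, with 30.9 to 34.1 FPKM in the remaining LD and 24.0 to 28.6 FPKM in the NL samples. *Rlbp1* was at 138 and 140 FPKM in LD-4 and LD-6, with 67.2 to 74.1 FPKM in the remaining LD and 114 to 149 FPKM in the NL samples. *Glul* did not set LD-4 and LD-6 apart, at 156 and 170 FPKM among 158 to 177 FPKM, and was lower in LD than in NL (629 to 825 FPKM). The part of such differences in the *Crybb3* values was not tested.

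*Crybb1*, on chromosome 5 from 112255815 to 112269585 (plus strand), encodes another basic β-crystallin and was nearly as abundant as *Crybb3* under NL. It was at 0.380 FPKM in NL-1, 0.191 in NL-4, 0.800 in NL-5, 0.478 in NL-7 and 0.197 in NL-8. The LD values were 0.0416 FPKM in LD-1, 0.150 in LD-4, 0.136 in LD-6, 0.267 in LD-7 and 0.0456 in LD-8. LD-7 lay above NL-4 and NL-8, so the groups overlapped. Behind these values were 4 to 16 reads (NL) or 1 to 6 reads (LD) in a sample. Its log2 fold change of -1.12 ± 0.38 (SE) had a 95% interval from -1.95 to -0.28, and the adjusted p of 0.0491 by limma did not pass the threshold of 0.01. The exact permutation test, two-sided and not adjusted, gave p = 0.0397. As *Crybb1* passed the filter through its NL values, neither p is read as support for a difference. At an adjusted p under 0.05 without a fold change minimum, 27.8% of all genes tested differed, and *Crybb3*, *Crybb1* and *Crygs* were among them. Over the alternatives the log2 fold change of *Crybb1* ran from -1.69 with a pseudocount of 0.01 to -0.31 with a pseudocount of 1, with adjusted p from 0.0284 to 0.146 by limma.

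*Crygs*, on chromosome 16 from 22805203 to 22811577 (minus strand), encodes γS-crystallin, which in the lens is made by adult fibre cells. Under NL it was at 0.0534 FPKM in NL-1, 0 in NL-4, 0.113 in NL-5, 0.108 in NL-7 and 0.0886 in NL-8, each at most 2 reads. After LD it was at 0.187 FPKM in LD-1, 0.225 in LD-4, 0.511 in LD-6, 0.201 in LD-7 and 0.154 in LD-8, from 3 to 10 reads. The groups did not overlap, as in 22.4% of all genes tested, and LD-6 stood apart within the LD group. In total there were 7 reads in the NL and 25 in the LD retinas, a ratio of 3.50 per library size (exact 95% interval for counting error only, 1.47 to 9.60). A log2 fold change of 1.02 ± 0.30 (SE) came with an adjusted p of 0.0269 by limma, which did not pass the threshold, and the two-sided exact permutation p was 0.00794. As *Crygs* passed the filter through its LD values, neither p is read as support for a difference. Over the alternatives the log2 fold change of *Crygs* ran from 0.22 with a pseudocount of 1 to 1.97 with a pseudocount of 0.01, with adjusted p from 0.0175 to 0.117 by limma.

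The acidic β-crystallin genes *Cryba1* and *Cryba4* were present in every retina, without a detectable difference. *Cryba1*, on chromosome 11 from 77718615 to 77725283 (minus strand), lies within *Nufip2*, which is on the opposite strand and shares no exon base with it. The library kit does not mark strand, so reads from introns of *Nufip2* are not told apart from *Cryba1* reads. It was at 0.147, 0.207, 0.155, 0.0295 and 0.219 FPKM in NL-1, NL-4, NL-5, NL-7 and NL-8. Its LD values were 0.0515, 0.186, 0.0561, 0.138 and 0.197 FPKM in LD-1, LD-4, LD-6, LD-7 and LD-8. Both groups covered nearly the same range, and the log2 fold change of -0.15 had a 95% interval from -0.83 to 0.54 (adjusted p = 0.773 in limma).
*Cryba4* is on chromosome 5 from 112246493 to 112252518 (minus strand), next to *Crybb1*, from which it is transcribed in the opposite direction. It was at 0.112, 0.0562, 0.235, 0.169 and 0.324 FPKM in NL-1, NL-4, NL-5, NL-7 and NL-8. After LD it was at 0.147, 0.294, 0.0533, 0.0524 and 0.107 FPKM in LD-1, LD-4, LD-6, LD-7 and LD-8. The ranges overlapped throughout, and the log2 fold change of -0.28 had a 95% interval from -1.04 to 0.48 (adjusted p = 0.592 in limma). On reads per library size the ratio of LD to NL was 0.799 (exact 95% interval 0.434 to 1.46) for *Cryba1* and 0.693 (0.302 to 1.54) for *Cryba4*, so that a 2-fold lower level lies inside both intervals. They rest on few reads, since *Cryba1* had at most 9 and *Cryba4* at most 7 reads in a retina.

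**Figure D3:**
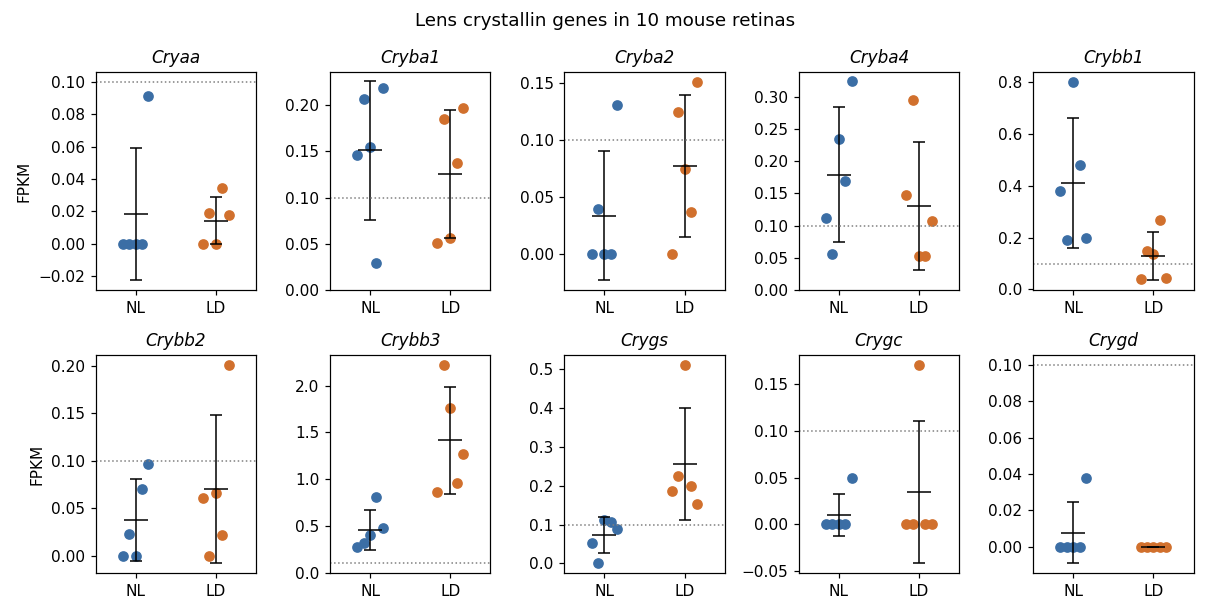
FPKM of the 10 lens crystallin genes in each NL (blue) and LD (orange) retina, with the mean and SD of 5 retinas in black and a dotted line at 0.1 FPKM, the level used by the filter. The scales differ between genes, and only for *Crybb3* and *Crygs* does every LD retina lie above every NL retina. Of all genes tested, 22.4% had groups that did not overlap, in either direction.

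The other 5 members were at or near 0. *Cryaa*, encoding αA-crystallin, a main protein of the lens, lies on chromosome 17 from 31677933 to 31681724. It had 6 reads in NL-8, none in the other 4 NL retinas, and 0 to 2 reads in the LD retinas. An antisense gene overlaps 273 of its exon bases, and without strand reads of the 2 cannot be told apart. *Crygd*, which encodes γD-crystallin of the lens core, had a single read in NL-8 and none in the other 9 retinas. *Crygc*, its neighbour on chromosome 1 and a close paralog whose reads could be shared with it, had 1 read in NL-8, 3 in LD-6 and none elsewhere. *Cryba2* had 0 to 4 reads per retina, 5 in all NL and 10 in all LD retinas. *Crybb2*, whose product is among the most abundant β-crystallins of the adult lens, had at most 5 reads in an NL sample and 9 in an LD sample. For the latter 2 genes the ratio of LD to NL reads per library size was 1.96 (exact 95% interval 0.611 to 7.32) and 1.74 (0.726 to 4.48), so that a difference in either direction was not detectable at this depth. The two-sided exact permutation p was 0.270 for *Cryba2* and 0.563 for *Crybb2*.

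The order of the levels differed in part between the groups. Under NL the means followed the order *Crybb3*, *Crybb1*, *Cryba4*, *Cryba1*, *Crygs*, *Crybb2*, *Cryba2*, *Cryaa*, *Crygc* and *Crygd* on the FPKM scale, which is per length, and the range of each gene over the retinas overlapped that of the next. After LD the order began with *Crybb3*, *Crygs*, *Cryba4* and *Crybb1*, and only the step from *Crybb3* to *Crygs* was free of overlap. The lens proteins αA and γD were thus at the low end of both orders. Among all genes tested, the mean level of *Crybb3* was at the 35.3 percentile, and those of the other 4 tested members were between the 4.3 and 14.6 percentile.
The SD of log2(FPKM + 0.1) within groups was 0.47 to 0.64 for the 5 tested members, at the 75.4 to 84.6 percentile of all genes tested, which include genes with many more reads. The median SD of 0.51 depends on the pseudocount, with 0.13 at a pseudocount of 1 and 0.95 at 0.01. The highest retina was not the same for all members: NL-8 held the highest value of 4 members, LD-6 and LD-8 of 2 each, and NL-5 and LD-4 of 1 each. NL-8 was the only retina with a read of all 10 members. It was also the most deeply sequenced, with 26832535 reads, and had the highest summed level of 10 marker genes of the retinal pigment epithelium, 163 FPKM compared with 55.6 to 126 FPKM elsewhere. None of these 10 pigment epithelium genes was called between LD and NL, against 6.51% of all genes tested. Of 8 markers of cornea, iris and ciliary body, 6 were tested and 1, *Col9a1*, was called lower, against 2.37% of all genes tested. The sum of the 8 markers was 10.5 to 27.4 FPKM in the NL and 6.92 to 15.5 FPKM in the LD group. It was highest in NL-1, not in NL-8. Whether any of this bears on the crystallin reads of NL-8 was not tested.

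Markers of lens fibres, the cells with most crystallin in the lens, were also near 0. Of 11 such genes, *Dnase2b* had no read in any retina, 4 genes including *Dnase2b* never exceeded 3 reads, and the other maxima were at most 29 reads. *Mip*, the main membrane protein of lens fibres, had 0 to 6 reads in a retina, and the lens gap junction gene *Gja3* had at most 2 reads. The summed level of the 11 genes was 0.736 to 1.28 FPKM under NL and, overlapping with it, 0.940 to 1.70 FPKM after LD. The lens epithelial factor gene *Foxe3* had no read in any retina. Of the 3 fibre genes that passed the filter, *Bfsp1* and *Bfsp2*, encoding the beaded filament proteins, had log2 fold changes of 0.00 and -0.09, and *Grifin* had 0.85 (adjusted p = 0.995, 0.862 and 0.166 in limma), so that none was called. *Bfsp2* had 13 and 26 reads in LD-4 and LD-6, where LD-1, LD-7 and LD-8 had 10 to 23 and the NL group 9 to 29. Between LD and NL, *Bfsp1* and *Bfsp2* overlapped. Reads of 2 less abundant fibre genes were more frequent after LD, with 13 against 2 for *Birc7* (ratio per library size 6.38, exact 95% interval 1.44 to 58.2, below the filter) and 13 against 4 for *Grifin* (3.19, 0.985 to 13.4). *Lim2*, also below the filter, went the other way, with 4 LD against 10 NL reads (0.392, 0.0898 to 1.36). The two-sided exact permutation p, not adjusted, was 0.0556 for *Birc7*, 0.0952 for *Grifin* and 0.0397 for *Lim2*. These were the lowest among the 11 fibre genes. The part of carried-over lens in the crystallin values was not tested.

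**Figure D4:**
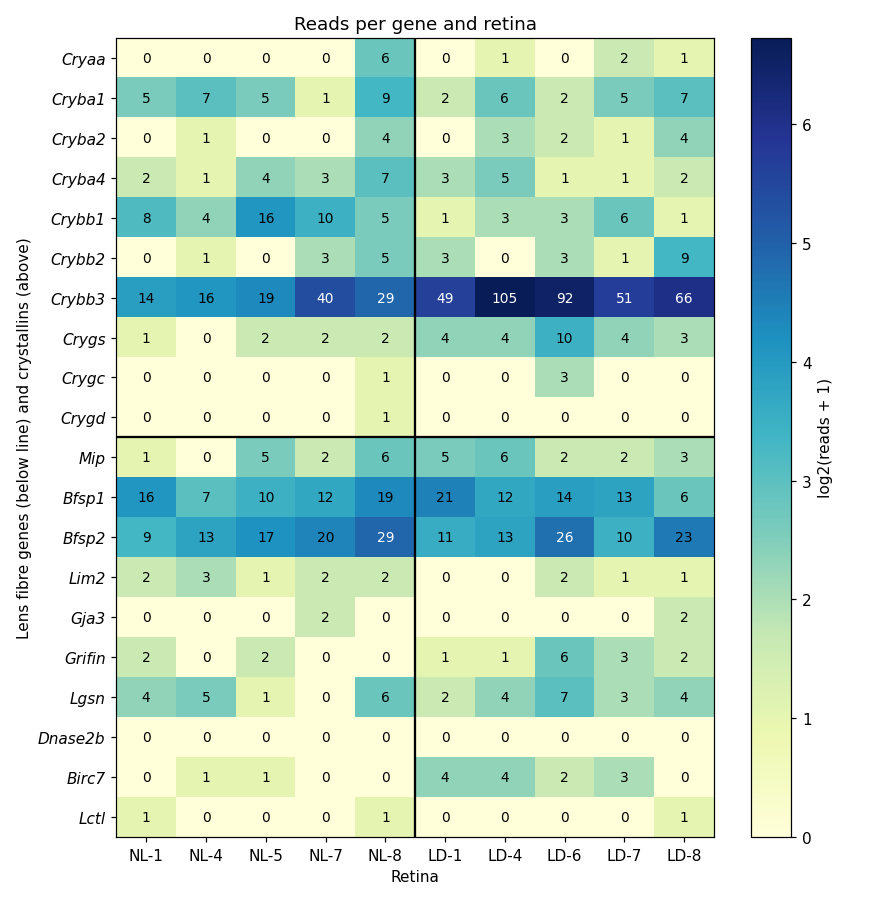
Reads recovered for the 10 lens crystallin genes (above the line) and 10 of the 11 lens fibre genes (below) in each of the 10 retinas, with the number of reads in each cell and colour on a log2(reads + 1) scale. *Crybb3* ranges from 14 to 105 reads, while *Cryaa*, *Crygc*, *Crygd* and *Gja3* are at 0 in most retinas.

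Of 10 genes for transcription factors of lens development, 8 were tested and 1 was called, against 6.51% of all genes. *Sox2*, also a gene of Müller glia and amacrine cells, rose from 17.5 ± 0.862 FPKM in NL to 36.7 ± 6.80 FPKM in LD (SD over 5 retinas), by 1.04 on the log2 scale (adjusted p = 8.80e-05 in limma). Without LD-4 or LD-8 its change was 0.98 or 1.00, just under 2-fold. *Maf*, *Pax6* and *Prox1*, each expressed in the retina in its own right, were at 3.50 to 4.36, 30.4 to 43.5 and 26.3 to 34.0 FPKM over the 10 retinas, with log2 fold changes of 0.10, 0.21 and 0.01, none of them called.

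Among 12 further genes that carry the crystallin name, 7 were tested, 2 were called higher and none lower, against 4.13% and 2.37% of all genes tested. The median log2 fold change of the 7 was 0.28. The γ-crystallin genes *Cryga*, *Crygb* and *Crygf*, close paralogs of *Crygc* and *Crygd*, had at most 3 reads in any retina, and *Cryge* had none. *Cryab*, encoding αB-crystallin, which unlike αA is made in many tissues under stress, was at 14.4, 12.2, 13.5, 12.1 and 11.5 FPKM in NL-1, NL-4, NL-5, NL-7 and NL-8. It was at 24.1, 64.2, 60.7, 26.9 and 39.2 FPKM in LD-1, LD-4, LD-6, LD-7 and LD-8, above all NL values. The log2 fold change of 1.64 ± 0.26 (SE) had an adjusted p of 9.15e-04 by limma. *Hspb2*, which overlaps *Cryab* on the opposite strand, had at most 0.113 FPKM.
*Crym* encodes µ-crystallin, named as a lens protein of marsupials and known in other tissues as a binding protein of thyroid hormone. It rose most of these 12 genes, from 21.3, 20.6, 25.3, 25.5 and 20.0 FPKM in NL-1, NL-4, NL-5, NL-7 and NL-8 to 132, 377, 370, 136 and 170 FPKM in LD-1, LD-4, LD-6, LD-7 and LD-8. The means of 22.6 ± 2.66 and 237 ± 125 FPKM (SD, n = 5 each) differed by 3.23 ± 0.31 (SE) on the log2 scale, with an adjusted p of 3.00e-05 by limma. LD-4 and LD-6 were the highest LD retinas for *Crym*, *Cryab* and *Crybb3* alike. They were also the closest pair of samples, so they may not count as 2 separate observations. Both called genes were far more abundant than any lens crystallin of the 10: the lowest *Cryab* value, 11.5 FPKM, was above the highest *Crybb3* value of 2.22 FPKM.
Of 9 small heat shock protein genes, which include *Cryaa* and *Cryab*, 6 were tested and only *Cryab* was called, against 6.51% of all genes. *Hspb1* and *Hspb8* had log2 fold changes of 0.10 and 0.44 (adjusted p = 0.723 and 0.0396 in limma).

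**Figure D5:**
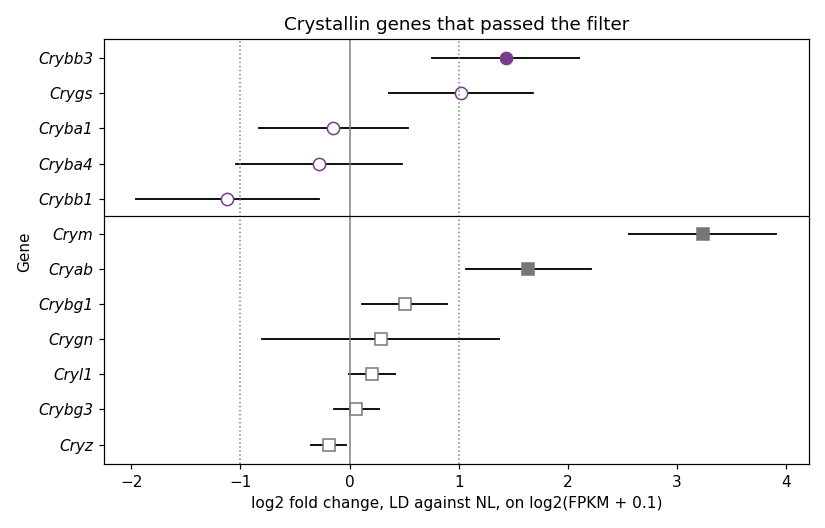
Log2 fold changes of LD against NL from limma on log2(FPKM + 0.1), with 95% intervals, for the 5 tested members (circles) and the 7 tested further crystallin genes (squares). Filled symbols are genes called at an adjusted p under 0.01 and above 2-fold (dotted lines): *Crybb3*, *Crym* and *Cryab*.

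The genes most like the members in pattern were those with the largest Pearson r over the 10 retinas between their log2 values and the mean log2 value of the 10 members, among 18010 genes compared. They were *Rian* (r = 0.920), *Abcc8* (0.912), *B230217C12Rik* (0.899), *Myo9b* (0.883) and *Zfp825* (0.883), followed by *Gm26840*, *Dzip1*, *Fhl1*, *Magi1* and *Gm8399* (0.873 to 0.879). With the group means subtracted, the highest were *Irgm2* (0.958), *Gm49172* (0.948), *B230217C12Rik* (0.927), *Ano6* (0.917) and *Mt3* (0.911). These values share library and depth with the members, and the member mean rests on few reads. As the highest of 18010 genes over 10 retinas, they were picked for a large r, and the r that chance gives was not computed.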

How the data were processed

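RNA-seq was done on 5 NL and 5 LD retinas. According to the study's methods, RNA was isolated from neural retina with TRIzol, and a company sequenced and normalized the libraries. The labels name a TruSeq RNA kit, which does not mark strand. The submitters' processing notes name Bowtie2 2.0.6, TopHat2 2.0.9 and the build mm8, while the positions in the table are those of GRCm38: 53499 of 54409 identifiers matched in GENCODE M21 have the same start and end. The counting program is not given in the sources used here. The authors deposited FPKM values of 54532 genes. Multiplied by gene length, 100% of these values were whole multiples of 1 step per retina (within 0.01), which gave the reads per gene. Intervals cover counting error only.

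From these, log2(FPKM + 0.1) was tested with limma 3.58.1 (R 4.3.3, intensity trend, no block, Benjamini-Hochberg over 24508 genes). Exact permutation tests of every member and every list gene with a read, not adjusted, used scipy 1.17.1 (Python 3.11.15, numpy 2.4.6, pandas 2.3.3), and plots matplotlib 3.10.9. Simulated data were used to test the fit. Changes were placed only in genes with more reads than any member but *Crybb3*, so the depth of the other members was not covered. The members and gene lists were chosen with earlier results of these data known. Every member and every list was to be reported, with the 10 and the 5 genes most like the member mean. Alternatives changed pseudocount, filter, scaling, trend, test, threshold, block and retinas. The 3 closest pairs averaged and values without the factor per retina were added after the data were seen. Some genes of the marker lists are not reported here.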

Additional observations from a re-analysis of the deposited data

Results flagged for a closer look

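The 27 sets of 5 values came from the members, *Cryab*, *Crym* and the summed members with and without *Crybb3*, each in a group. Among these sets, 5 held a value separated from the rest by most of the range, where a rate of 1 in 20 would give 1.35. That rate does not apply to 4 of the 5, in which 4 values are 0 and any single read gives such a gap. In the NL group this was NL-8 for *Cryaa* (0.0910 FPKM, 6 reads), *Crygc* (0.0493 FPKM, 1 read) and *Crygd* (0.0377 FPKM, 1 read), with 0 in each remaining NL retina. In the LD group it was LD-6, for *Crygs* at 0.511 FPKM, where LD-1, LD-4, LD-7 and LD-8 had 0.154 to 0.225 FPKM, and for *Crygc* at 0.171 FPKM (3 reads), where they had 0. For *Crygc* and *Crygd* these are differences of 1 to 3 reads.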

How the results depend on the processing

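For the 5 tested members, the direction was the same under all alternatives that gave a value. The number of genes called was 1595, and 816 with a pseudocount of 1, 6818 at an adjusted p under 0.05 with any fold, and 1379 to 1603 with each retina left out. The labels do not say whether the numbers they share (1, 4, 7 and 8) pair the retinas. Deviations of retinas with the same number had correlations of -0.089 to 0.066. Of the 4 NL retinas, 1 correlated best with the LD retina of its number. With 4 such pairs, a pairing was neither shown nor excluded. With the replicate block, 808 genes were called, against 1182 for the same 8 retinas without it, and *Crybb3* was at 1.31 (adjusted p = 0.0753 in limma). Without the block these retinas gave 1.31 (0.0369). *Cryab* was at 1.51 with the block and no longer called (0.0202). *Crybb3* was also no longer called with a pseudocount of 1 (0.71), with the closest pairs averaged (1.49), or with most single retinas left out (range over the 10 retinas 1.26 to 1.62). At an adjusted p under 0.05 with any fold, *Crybb1* (-1.12) and *Crygs* (1.02) passed in limma, as did 27.8% of all genes tested. Both had passed the filter through the group where they are higher, so this is not read as support for a difference. Leave-one-out ranges were -1.31 to -0.88 for *Crybb1*, 0.80 to 1.12 for *Crygs*, -0.37 to -0.02 for *Cryba1* and -0.50 to -0.11 for *Cryba4*. The summed FPKM of the members was higher in LD by 0.873 on average (0.631 to 1.10 with a retina left out), and reversed without *Crybb3* to -0.0833. The median SD of the tested members was 0.51 (0.49 to 0.55 with a retina left out), 0.13 with a pseudocount of 1 and 0.95 with 0.01. Without the factor per retina the median log2 fold change of all genes was 0.11 in place of -0.01. A count test on recovered reads was not run with edgeR, since the deposited unit is FPKM, and limma-voom stood in for it. Under a filter of 1 FPKM no member was tested. Depth limits all members but *Crybb3*, with at most 16 reads in a retina.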
